A study of Mus musculus with 8 samples.

Results

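The genes described here are 10 enzymes that make, clear or consume nicotinamide adenine dinucleotide (NAD): Nampt, Nmnat1, Nmnat3, Naprt, Nadsyn1, Nnmt, Sirt1, Sirt3, Parp1 and Cd38. They were chosen by name for their role in NAD metabolism, with earlier results of these data known. All 10 are among the 55487 genes of the count table and passed the expression filter, as did 14353 genes in all. RNA was sequenced from the stromal vascular fraction (SVF) of subcutaneous MC38 tumors, a mouse colorectal cancer line, grown in Bmal1+/+ and Bmal1-/- mice, with 4 samples per genotype. Bmal1, also named Arntl, is the activator at the centre of the circadian clock, and the Bmal1-/- mice carry a deletion in every cell from birth, so stroma and host tissues share it. The SVF was defined by sorting away tumor cells that carried GFP. The age and sex of the mice and the clock time of collection are not given in the sources used here, nor is it stated whether each library came from 1 mouse, so p-values measure the spread between these samples.

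Mammalian cells recycle most of their NAD from nicotinamide. NAMPT turns nicotinamide into nicotinamide mononucleotide and limits the rate of this salvage route, and the NMNAT enzymes finish the synthesis of NAD. Nicotinic acid enters through NAPRT and NADSYN1, tryptophan through the kynurenine pathway, and NNMT methylates nicotinamide so that it is lost. Sirtuins, PARP enzymes and CD38 all split NAD and release nicotinamide. Nampt is a known target of the clock proteins CLOCK and BMAL1, which bind the E-box sequence CACGTG, and SIRT1 in turn acts on the clock.

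Among the 10 genes, Nampt and Cd38 fell in the libraries labelled Bmal1-/-, and no gene rose. Nampt was 5.34-fold lower and Cd38 was 1.90-fold lower in normalised CPM, which are counts scaled to each library's TMM-adjusted total. The other 8 genes did not pass the test, which was edgeR's quasi-likelihood test over all 14353 genes with Benjamini-Hochberg adjusted p below 0.05. Of all genes tested, 16.2% were called lower and 14.9% higher by this rule, so 2 of 10 lower and 0 of 10 higher are shares to read against those. The median log2 fold change of the 10 genes was -0.02 and that of all genes was 0.02, while the median size of the change, regardless of direction, was 0.10 for the 10 genes and 0.35 for all genes. By the criterion of the study, an absolute log2 fold change above 1 with an unadjusted p below 0.05, Nampt alone was lower and no gene was higher, against 8.71% lower and 5.41% higher among all genes. The 4 Bmal1+/+ values lay above the 4 values with the other label for Nampt and Cd38 and for no other gene of the 10, and groups separated in this way, lower or higher, in 16.8% and 16.7% of all genes.

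**Figure D1:**
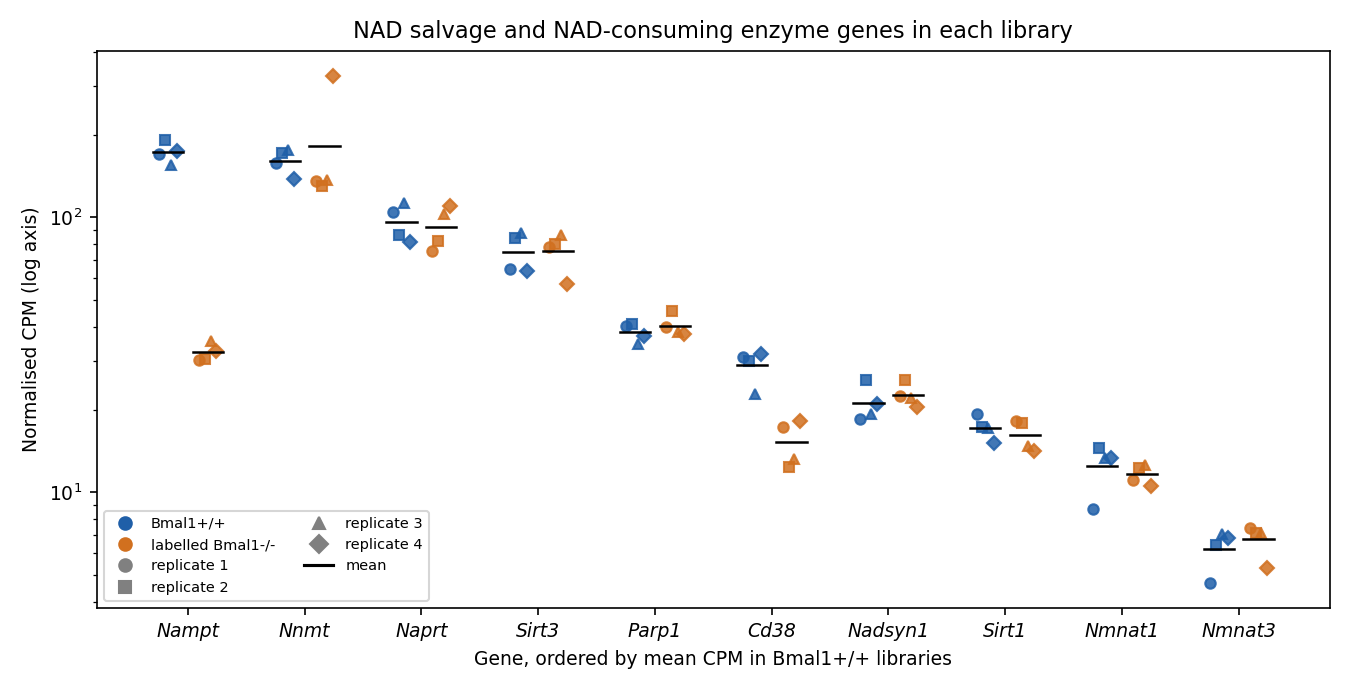
Normalised CPM of the 10 genes in each of 8 libraries on a log axis, with a point per library, a marker shape per replicate number and a bar at the group mean. Nampt and Cd38 are the genes whose groups do not overlap, and replicate 4 of the libraries labelled Bmal1-/- stands apart for Nnmt at 327 CPM.

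Before these values are read, the labels were checked. Bmal1 transcripts were at 1.55 ± 0.814 CPM in Bmal1+/+ libraries and at 32.6 ± 2.00 CPM where the label reads Bmal1-/- (SD, n = 4 each), the opposite of a loss. Counts per gene do not show which exons the reads came from. The total count of the targeted gene went against the label, and whether its transcripts were intact cannot be told from these counts. The wording "libraries labelled Bmal1-/-" is used for this reason, and each direction given here rests on the labels. Transcripts of the sex chromosomes also separated the groups, with Xist between 844 and 1095 CPM in Bmal1+/+ libraries and at most 0.749 CPM in the others, and Ddx3y with 0 counts in Bmal1+/+ libraries but 58.1 to 61.2 CPM in the others. The groups thus differ in sex as read from these transcripts, female in Bmal1+/+ libraries and male in the others. Genotype label and sex cannot be told apart in any comparison here. The summed CPM of 10 hepatocyte markers was 93115 to 106104 in Bmal1+/+ libraries and 57226 to 64365 in the others, although the samples are labelled as tumor SVF. Alb, 1 of these markers, averaged 69270 CPM in Bmal1+/+ libraries and 16144 CPM in the others. The hepatocyte sums were far above the 98.0 to 206 CPM of 6 fibroblast markers and the 234 to 647 CPM of 8 macrophage markers. Library totals were between 14054825 and 18449143 counts, at which 3 counts are 0.163 to 0.213 CPM, and replicate 4 of the libraries labelled Bmal1-/- held 36959 CPM of 7 acute-phase transcripts against at most 4293 CPM in any other library.

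Nampt (ENSMUSG00000020572) is annotated on the plus strand of GRCm38 at chr12:32819545-32853349. Its values were 170.5, 192, 155 and 174 CPM in Bmal1+/+ libraries and 30.3, 30.6, 35.7 and 32.8 CPM in the libraries labelled Bmal1-/-. The groups were far apart, and neither group had a library apart from the rest. Group means were 173 ± 15.3 CPM and 32.3 ± 2.46 CPM (SD, n = 4 each). The log2 fold change was -2.42 (standard error 0.11, 95% interval -2.66 to -2.18, adjusted p = 8.6e-07 by edgeR's quasi-likelihood test). Of all genes tested, 1.57% had a lower fold change, and Nampt was in place 15 when genes were ordered by p. Scaled per transcript length, in the FPKM of the authors, Nampt was level with Naprt in Bmal1+/+ libraries, with Nampt to Naprt ratios from 0.856 to 1.39, whereas the ratios were 0.186 to 0.251 in the libraries labelled Bmal1-/-. The ratio of Nampt to Hnf4a, a hepatocyte transcription factor, was 0.267 to 0.398 against 0.0605 to 0.0897, and the ratio to Csf1r, a macrophage receptor, was 2.30 to 3.19 against 0.610 to 1.47, so neither ratio overlapped between groups. Hepatocyte markers did not move as one. Of 10 tested, Alb fell (log2 fold change -2.10), Apoa1, Fgb and Serpina1c rose and 6, Hnf4a among them, were not called. Among all genes tested, 16.2% were called lower and 14.9% higher. In the libraries labelled Bmal1-/-, Fgb was at 12463 CPM in replicate 4 and at 4178 to 5124 CPM in replicates 1 to 3. Relative to Alb, albumin, the Nampt ratio did overlap, at 0.00106 to 0.00129 against 0.000778 to 0.00124.

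The bases before the transcription start are shown for the genes that fell, Nampt and Cd38, and for the genes of the 10 that hold an E-box there, Sirt1 and Parp1. RefSeq start sites of GRCm38.p6 gave an entry for 8 of the 10 genes, in 10 windows of 250 bases, and Naprt and Nnmt had no entry. Capitals mark CACGTG and the shared REV-ERB and ROR motif AGGTCA, searched on both strands, and each run is written in the direction of the gene.
Nampt, chr12:32820085-32820334, plus strand: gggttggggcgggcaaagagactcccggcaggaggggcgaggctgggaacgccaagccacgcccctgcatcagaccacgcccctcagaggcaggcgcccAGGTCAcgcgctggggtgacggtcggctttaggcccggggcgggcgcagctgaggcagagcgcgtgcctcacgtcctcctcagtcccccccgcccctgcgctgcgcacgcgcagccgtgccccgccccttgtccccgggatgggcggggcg
Cd38, chr5:43868559-43868808, plus strand: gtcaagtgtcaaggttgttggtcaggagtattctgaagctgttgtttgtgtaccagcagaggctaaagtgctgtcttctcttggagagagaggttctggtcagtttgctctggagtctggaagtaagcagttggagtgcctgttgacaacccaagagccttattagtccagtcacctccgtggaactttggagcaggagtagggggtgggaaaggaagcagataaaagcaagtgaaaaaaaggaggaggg
Sirt1, chr10:63339036-63339285, minus strand: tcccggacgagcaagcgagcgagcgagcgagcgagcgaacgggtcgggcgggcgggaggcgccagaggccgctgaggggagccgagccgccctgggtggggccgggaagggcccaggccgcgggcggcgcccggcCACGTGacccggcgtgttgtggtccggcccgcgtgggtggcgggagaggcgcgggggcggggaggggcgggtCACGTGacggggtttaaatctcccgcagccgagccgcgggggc
Parp1, chr1:180568641-180568890, plus strand: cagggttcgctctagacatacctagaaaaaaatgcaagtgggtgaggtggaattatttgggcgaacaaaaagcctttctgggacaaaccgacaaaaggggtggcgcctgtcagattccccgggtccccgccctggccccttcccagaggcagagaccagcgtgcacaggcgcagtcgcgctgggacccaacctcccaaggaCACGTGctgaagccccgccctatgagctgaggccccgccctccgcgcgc
An E-box lay in 2 of the 10 windows. The Sirt1 window held 2, starting 115 and 43 bases before the start, and the Parp1 window held 1, starting 49 bases before it. The Nampt window had no CACGTG and 1 AGGTCA 151 bases before the start, and the Cd38 window had neither motif. Among 32851 windows of all genes of the same length, 6.02% held CACGTG and 14% held AGGTCA. Neither the E-box variant CACGTT (3.85% of all windows) nor the D-box TTATGTAA (0.819%) was in a window of the 10 genes. A match describes the letters alone. The GENCODE annotation places the outermost start of Nampt, Cd38 and Sirt1 upstream of the windows printed, and that of Nmnat3 upstream of its window. The same holds for 1 of the 2 Sirt3 windows, so these windows lie inside the annotated genes. Of the 2 Nmnat1 windows, 1 runs across the annotated start and lies partly inside the gene. Sirt1 and Parp1, the genes with an E-box, were not called changed, with values given further on.

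Within the salvage and nicotinic acid routes, 7 of 9 listed genes were tested, of which Nampt and Nmrk1 fell, Pnp rose and 4 did not pass the test. The shares over all genes tested were 16.2% lower and 14.9% higher. Nmrk1, the kinase that makes nicotinamide mononucleotide from nicotinamide riboside, is a parallel entry beside NAMPT. Its level was 45.1 to 63.1 CPM in Bmal1+/+ libraries and 9.30 to 13.7 CPM in the libraries labelled Bmal1-/-. It was 4.50-fold lower without overlap, at a log2 fold change of -2.17 with a standard error of 0.15 and an adjusted p of 1.2e-05. Pnp, which splits nicotinamide riboside among other nucleosides, rose from 86.4 ± 12.0 to 136 ± 23.4 CPM (SD, n = 4 each), with a log2 fold change of 0.65 (adjusted p = 0.0084). Both entries into nicotinamide mononucleotide, Nampt and Nmrk1, were thus lower in each of the 4 libraries labelled Bmal1-/- than in any Bmal1+/+ library. Such a separation to the lower side was seen in 16.8% of all genes tested.

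The enzymes that act after these entries did not pass the test. Nmnat1, the nuclear adenylyltransferase, ranged from 8.67 to 14.5 CPM in Bmal1+/+ libraries and from 10.6 to 12.5 CPM in the others, with a log2 fold change of -0.10 (95% interval -0.47 to 0.27, adjusted p = 0.67). Nmnat3, the mitochondrial adenylyltransferase, lay between 4.70 and 7.05 CPM and between 5.29 and 7.43 CPM, with a log2 fold change of 0.11 (95% interval -0.28 to 0.51, adjusted p = 0.66). Both ranges overlapped. Nmnat2, the form best known from neurons, had at most 16 counts in a library, between 5 and 16 in Bmal1+/+ libraries and 0 or 1 in the others, and was too low to be tested. Nmrk2, the muscle form of the riboside kinase, was at 0 counts in all 8 libraries.

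The nicotinic acid route was likewise not called. Naprt, its first enzyme, had 81.1 to 113 CPM in Bmal1+/+ libraries and 75.4 to 109.7 CPM in the libraries labelled Bmal1-/-, with a log2 fold change of -0.06 (95% interval -0.40 to 0.29, adjusted p = 0.81). Its exons overlap those of Eef1d on the same strand, which reached 813 counts, so reads of the 2 genes may be shared. Nadsyn1, the amidating last step, was between 18.5 and 25.7 CPM and between 20.5 and 25.6 CPM, with a log2 fold change of 0.10 (95% interval -0.19 to 0.39, adjusted p = 0.59). The intervals of these uncalled genes bound a change on either side and do not show equal levels.

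The kynurenine route, which makes NAD from tryptophan and is most active in liver, was expressed in all libraries. Of 9 listed genes 8 were tested, 2 rose, 0 fell and 6 did not pass the test, where 14.9% of all genes were called higher and 16.2% lower. Kynu, kynureninase, rose from 143 ± 23.1 to 259 ± 5.15 CPM (SD, n = 4 each), with a log2 fold change of 0.86 (adjusted p = 9.7e-04). Qprt, the enzyme that joins quinolinic acid to the pathway, rose from 152 to 194 CPM with a log2 fold change of 0.35 (adjusted p = 0.041), and this call was made in 9 of the 17 fits, the main one included, over which its adjusted p was 0.018 to 0.11. Tdo2, the hepatic tryptophan dioxygenase, had group means of 1299.5 and 1611 CPM and a log2 fold change of 0.31 (adjusted p = 0.27). Log2 fold changes were 0.13 for Ido2, 0.07 for Kmo, 0.08 for Haao and -0.01 for Acmsd, the branch that leads away from NAD, none of them called. Afmid, the formamidase, had a log2 fold change of -1.10 with an unadjusted p of 0.033 and an adjusted p of 0.087, and it varied between 67.4 and 188 CPM among Bmal1+/+ libraries. Ido1, the inducible dioxygenase of immune cells, was at 0 counts in every library.

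**Figure D2:**
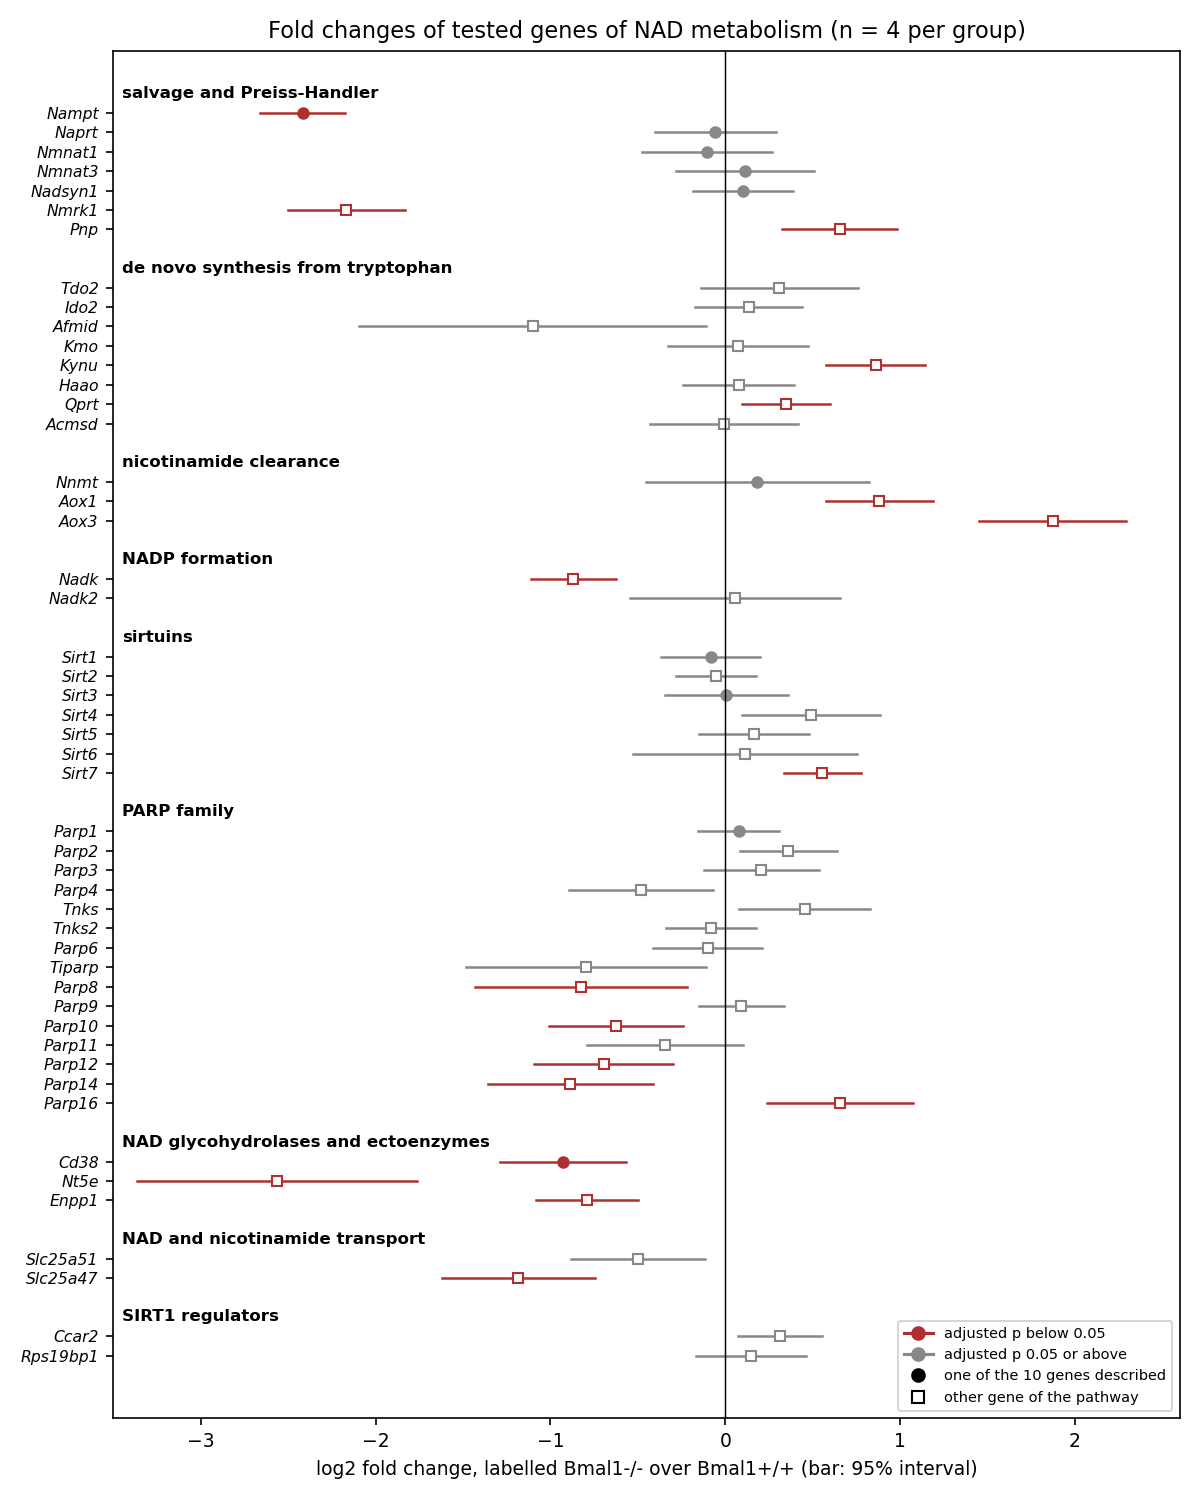
Log2 fold change of the tested genes of 9 lists, libraries labelled Bmal1-/- over Bmal1+/+ libraries, with 95% intervals, grouped by role in NAD metabolism. Filled circles are the 10 genes described and open squares the other genes of the pathway, with red for an adjusted p below 0.05. Nampt at -2.42, Nmrk1 at -2.17 and Nt5e at -2.56 lie farthest to the left and Aox3 at 1.87 farthest to the right.

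Nnmt, which methylates nicotinamide and so diverts it from salvage, was the most abundant of the 10 genes per transcript length in both groups. Its values were 157, 171, 176 and 139 CPM in Bmal1+/+ libraries and 136, 130.5, 137 and 327 CPM in the libraries labelled Bmal1-/-. Replicates 1 to 3 of the latter lay below every Bmal1+/+ library, and replicate 4 lay above all others. Over all libraries the log2 fold change was 0.18 (95% interval -0.46 to 0.82, adjusted p = 0.66), and without replicate 4 it was -0.25 (adjusted p = 0.11). That library is the one with 36959 CPM of acute-phase transcripts, and it also held 38.4 CPM of neutrophil markers against at most 3.68 CPM in replicates 1 to 3 and 6.50 to 9.63 CPM in Bmal1+/+ libraries, with the defining neutrophil marker Ly6g at no more than 3 counts in any library. The part of these transcripts in the Nnmt value was not tested.

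**Figure D3:**
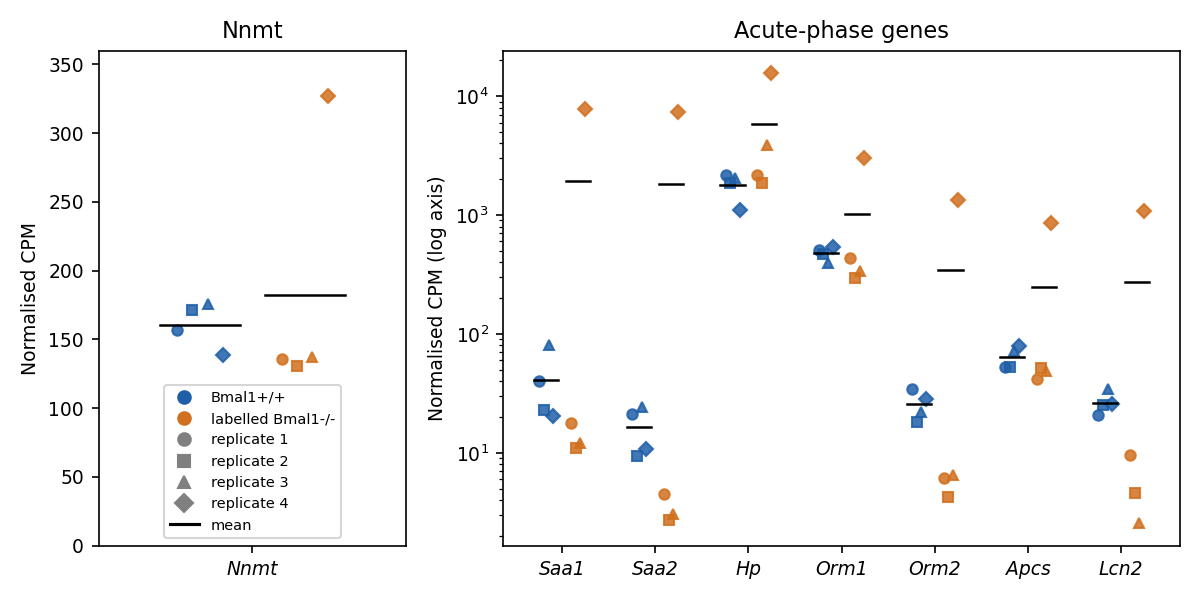
Normalised CPM of Nnmt (linear axis from 0) and of 7 acute-phase genes (log axis), with a point per library and a bar at each group mean. Replicate 4 of the libraries labelled Bmal1-/- is highest for Nnmt, at 327 CPM, and for each acute-phase gene.

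The aldehyde oxidases that act on N-methylnicotinamide, the product of NNMT, rose. Aox3, the main hepatic aldehyde oxidase of the mouse, was at 236 ± 25.4 CPM in Bmal1+/+ libraries and 863 ± 203 CPM in the libraries labelled Bmal1-/- (SD, n = 4 each). This 3.66-fold rise is 1.87 on the log2 scale, with a standard error of 0.19 and an adjusted p of 1.1e-04, and its lowest value in the higher group was 590 CPM, in replicate 4. Aox1 rose 1.84-fold, from 73.4 ± 10.9 to 135 ± 18.4 CPM (SD, n = 4 each), with a log2 fold change of 0.88 (adjusted p = 0.0013). Aox1 and Aox3 are related neighbours on chromosome 1, and reads that match both could be split between them.

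Phosphorylation of NAD to NADP is the work of 2 kinases, which differed in outcome. Nadk, the cytosolic enzyme, fell from 234 ± 4.40 to 128 ± 14.9 CPM (SD, n = 4 each), which is -0.87 in log2 with a standard error of 0.11 and an adjusted p of 3.7e-04. Nadk2, the mitochondrial enzyme, had a mean of 3.64 CPM in Bmal1+/+ libraries and 3.78 CPM in the others, with a log2 fold change of 0.06 (95% interval -0.55 to 0.66). The ratio of Nampt to Nadk per transcript length was 0.852 to 1.02 against 0.267 to 0.404, so Nampt was lower relative to Nadk as well.

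Sirtuins remove acyl groups from proteins with NAD as co-substrate. Of the 7, Sirt7 rose, none fell and 6 did not pass the test, where 14.9% of all genes were called higher and 16.2% lower. Sirt1, the nuclear form tied to the clock and to metabolism, ranged from 15.1 to 19.2 CPM in Bmal1+/+ libraries and from 14.1 to 18.2 CPM under the other label. The log2 fold change of Sirt1 was -0.08 (95% interval -0.37 to 0.20, adjusted p = 0.65), an interval that ends at 0.775-fold and 1.15-fold. Sirt3, the main mitochondrial deacetylase, had 63.7 to 87.4 CPM and 57.3 to 86.4 CPM, with a log2 fold change of 0.01 (95% interval -0.34 to 0.36, adjusted p = 0.98). Exons of Sirt3 overlap those of Ric8a and Psmd13 on the other strand, with up to 430 and 918 counts, and the use of strand in the counting is not given in the sources used here. The ranges of both genes overlapped between groups.

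Sirt7, a nucleolar sirtuin, rose from 23.3 ± 1.56 to 34.2 ± 2.48 CPM (SD, n = 4 each), which is 0.56 in log2 with a standard error of 0.10 and an adjusted p of 0.0026. Sirt4, another mitochondrial form, was 5.19 to 7.19 CPM in Bmal1+/+ libraries and 7.67 to 11.9 CPM in the others. These groups did not overlap, but the adjusted p was 0.060 for a log2 fold change of 0.49. Log2 fold changes were -0.05 for the cytoplasmic Sirt2, 0.16 for the mitochondrial Sirt5 and 0.11 for the nuclear Sirt6, with adjusted p of 0.72, 0.41 and 0.79. Of 2 genes for regulators of SIRT1, the inhibitor CCAR2 and the activator RPS19BP1, 0 were called. Among all genes tested, 16.2% were called lower and 14.9% higher. Ccar2 was at 15.3 to 19.4 CPM in Bmal1+/+ libraries and 20.2 to 23.0 CPM in the others, without overlap. Its log2 fold change was 0.31 (adjusted p = 0.051 by edgeR's quasi-likelihood test), with a call in 2 of 17 fits. Such a separation to the higher side was seen in 16.7% of all genes tested.

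Parp1, which builds poly(ADP-ribose) at DNA breaks and is the chief nuclear consumer of NAD in stressed cells, ranged from 34.7 to 41.1 CPM in Bmal1+/+ libraries and from 37.6 to 45.8 CPM under the other label. A log2 fold change of 0.08 was fitted (95% interval -0.15 to 0.31, adjusted p = 0.60), the narrowest interval of the 8 uncalled genes. In the PARP family as a whole 15 genes were tested, 4 fell, 1 rose and 10 did not pass the test, where 16.2% of all genes were called lower and 14.9% higher. Those that fell were Parp8, Parp10, Parp12 and Parp14, and in replicate 4 of the libraries labelled Bmal1-/- the last 3 were at 1.61, 1.68 and 1.65 times the mean of replicates 1 to 3. Parp8 was called in 8 of 16 fits, Parp10 in 13 of 17 and Parp16, the gene that rose, in 12 of 17. The median log2 fold change of the family was -0.10.

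Cd38 (ENSMUSG00000029084; chr5:43868553-43912375, plus strand) encodes a membrane glycohydrolase that degrades NAD and is abundant on immune cells. Its values were 31.1, 30.2, 22.8 and 31.7 CPM in Bmal1+/+ libraries and 17.2, 12.3, 13.2 and 18.1 CPM in the libraries labelled Bmal1-/-. Every library of the latter group was lower than every Bmal1+/+ library, with replicate 3 of Bmal1+/+ nearest to them. The means were 29.0 ± 4.13 and 15.2 ± 2.89 CPM (SD, n = 4 each), and the log2 fold change was -0.93 (standard error 0.16, 95% interval -1.29 to -0.57, adjusted p = 0.0023). That size is short of the fold limit of the study's criterion.

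Many markers of macrophages, endothelial cells and fibroblasts were called lower too, though not all. The share called lower among all genes tested was 16.2%. Of 8 macrophage markers 7 fell, with a median log2 fold change of -1.07, and their summed level was 508 to 647 CPM in Bmal1+/+ libraries and 234 to 440 CPM in the others, with 440 CPM in replicate 4 and at most 259 CPM in replicates 1 to 3. Of 5 endothelial markers 4 fell (208 to 237 CPM against 132 to 193 CPM summed), while Stab2 was not called (log2 fold change -0.06). Of 6 fibroblast markers 3 fell (127 to 206 CPM against 98.0 to 103 CPM). Col1a1, Pdgfra and Pdgfrb were not called, with log2 fold changes of -0.01, -0.15 and -0.36. Dcn made up most of the fibroblast sum, with means of 119 CPM in Bmal1+/+ libraries and 73.2 CPM in the others. The B and plasma cell markers were near the detection limit, at 4.12 to 6.26 CPM and 3.12 to 5.22 CPM summed, with 0 of 4 tested genes called. T and NK cell markers were as low, at 2.75 to 3.33 CPM and 1.63 to 4.25 CPM summed, with 0 of 3 tested genes called. The ratio of Cd38 to Csf1r per transcript length overlapped between groups, at 0.483 to 0.642 and 0.431 to 0.694, as did the ratio to Clec4f, a marker of liver macrophages, at 0.0964 to 0.127 and 0.0855 to 0.129. The ratios to the endothelial receptor Kdr, 0.898 to 1.07 and 0.590 to 0.941, and to the fibroblast proteoglycan Dcn, 0.358 to 0.469 and 0.283 to 0.424, overlapped too. For Kdr the overlap rested on replicate 4 of the libraries labelled Bmal1-/-, at 0.941. Replicates 1 to 3, at 0.867, 0.590 and 0.879, lay below every Bmal1+/+ library. Csf1r, Clec4f, Kdr and Dcn, the denominators of these ratios, were each called lower themselves. No ratio of Cd38 to an uncalled marker such as Stab2, Col1a1 or Hnf4a was computed. Whether Cd38 kept pace with markers that were not called was therefore not tested. Without replicate 4 the log2 fold change of Cd38 was -1.02 (adjusted p = 0.0019). In bulk RNA, fewer cells of a type and less RNA per cell cannot be told apart.

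**Figure D4:**
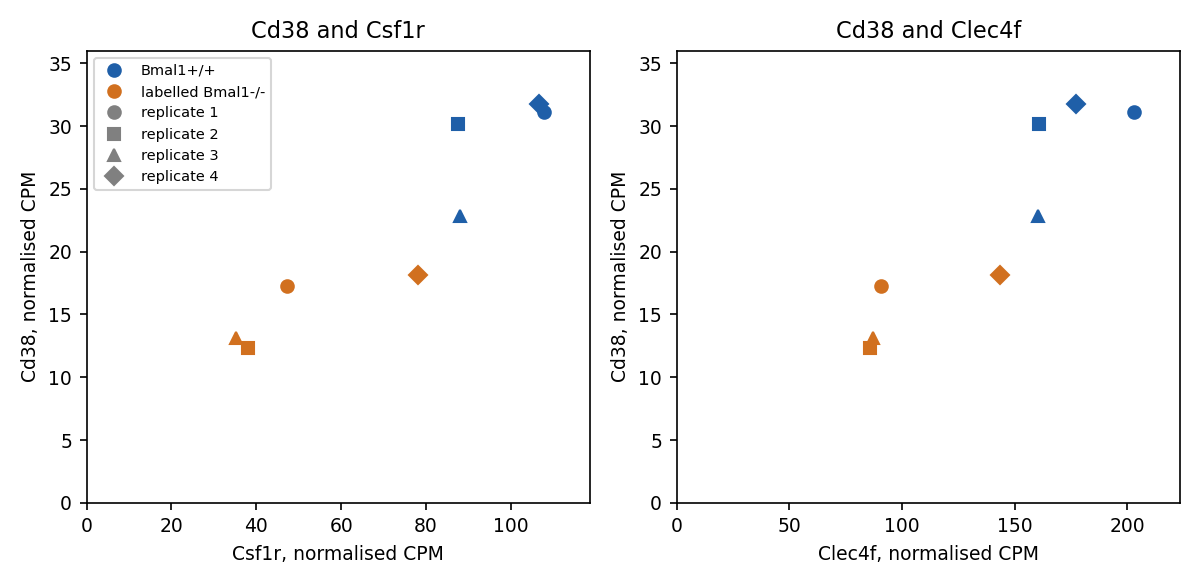
Normalised CPM of Cd38 against that of 2 macrophage genes, Csf1r and Clec4f, with a point per library and both axes from 0. The 4 Bmal1+/+ libraries lie at upper right, with 22.8 to 31.7 CPM of Cd38, and the libraries labelled Bmal1-/- at lower left, with 12.3 to 18.1 CPM.

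Of 5 listed glycohydrolases and ectoenzymes, the 3 that were tested were all called lower, Cd38, Nt5e and Enpp1, where 16.2% of all genes were. Bst1, at 0.389 and 0.399 CPM on average in the 2 groups, and Sarm1 were too low to be tested. Nt5e, which dephosphorylates nicotinamide mononucleotide and AMP outside the cell, was at 53.3, 23.8, 21.1 and 58.3 CPM in Bmal1+/+ libraries and at 6.68, 7.41, 4.48 and 7.87 CPM in the libraries labelled Bmal1-/-. The Bmal1+/+ libraries were thus uneven, with a low pair and a high pair, all above the other group. Nt5e was 5.91-fold lower, at -2.56 in log2 with a standard error of 0.36 and an adjusted p of 7.0e-04. Among carriers, Slc25a47, a liver mitochondrial carrier, fell from 1102 ± 194 to 485 ± 113 CPM (SD, n = 4 each), with a log2 fold change of -1.18 (adjusted p = 0.0018). The other tested carrier was not called, and 2 of the 4 listed were too low to be tested.

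Across all 46 other genes of the NAD lists, 39 were tested, 9 fell, 7 rose and 23 did not pass the test. Among all genes tested 16.2% were lower and 14.9% higher. By the study's criterion 4 were lower and 1 was higher, against 8.71% and 5.41% of all genes. The median size of the change was 0.48 on the log2 scale for these genes, against 0.10 for the 10 genes described and 0.35 for all genes.

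Levels can be compared between genes only per transcript length. In the authors' FPKM the order of the Bmal1+/+ means was Nnmt (52.4), Nampt (32.2), Naprt (28.8), Sirt3 (8.72), Cd38 (6.89), Parp1 (5.13), Nadsyn1 (4.06), Nmnat1 (2.56), Sirt1 (1.61) and Nmnat3 (0.809). Neighbours whose ranges overlapped were Nampt with Naprt, Sirt3 with Cd38, Parp1 with Nadsyn1, and Nmnat1 with Sirt1. In the libraries labelled Bmal1-/- Nampt stood in place 4, at 6.13 FPKM, between Sirt3 at 8.95 and Parp1 at 5.53, and its range overlapped both. Cd38 stood in place 7, at 3.69 FPKM, after Nadsyn1 at 4.45, again with overlap. Naprt at 28.1 FPKM was then the highest of the genes for NAD synthesis among the 10.

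The genes whose pattern over the 8 libraries was most like that of Nampt, among the 8158 genes averaging 10 CPM or more, were Dhrs7, Fmo2, Tpm4, Nr1d2 and BC005537. Their Pearson correlations with Nampt in log2 CPM were 0.997, 0.992, 0.992, 0.991 and 0.991, a description over 8 libraries that fall into 2 groups. Their choice by correlation with Nampt fixed that all 5 were lower in the libraries labelled Bmal1-/-. The log2 fold changes were -1.99 for Dhrs7, -4.45 for Fmo2, -0.97 for Tpm4, -3.58 for Nr1d2 and -1.09 for BC005537. Nr1d2 encodes REV-ERB beta, a repressor of the clock loop, Fmo2 a flavin monooxygenase, Dhrs7 a short-chain dehydrogenase and Tpm4 a tropomyosin. Nr1d2 was at 145 ± 8.58 CPM in Bmal1+/+ libraries and 12.1 ± 2.87 CPM in the others (SD, n = 4 each).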

How the data were processed

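RNA from 8 samples was grouped by genotype label; the Bmal1-/- sample titled with number 6 is replicate 4. According to the study's methods, the authors mapped reads to GRCm38 with HISAT2 and counted with StringTie, whereas the submitters' processing notes name CASAVA 1.8 and TopHat2 2.0.6. The authors deposited raw counts, the unit tested here, and FPKM, which is the count per library total and 1 length per gene (within 1% for 100% of 11442 genes with at least 20 counts in every library) and served for levels between genes. Symbols and positions are from GENCODE for GRCm38 and matched 99.4% of identifiers.

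In R 4.3.3, the quasi-likelihood test of edgeR 4.0.16, with TMM factors and a prior count of 0.125, was fitted to the 14353 genes that filterByExpr kept, with Benjamini-Hochberg adjustment over all of them. The common dispersion was 0.0506. The fit was tested on simulated counts that gave every gene this common dispersion and set no library apart. Spread that differs between genes, or a library that stands apart, was thus not covered. Alternatives were DESeq2 1.42.0, limma-voom (limma 3.58.1), other normalizations, filters and prior count, the replicate number as a block, leaving out each library, and the study's criterion. Normalised CPM use TMM. Figures were drawn with matplotlib 3.10.9. Totals were 14054825 to 18449143 counts, and floors of 3 counts cover counting error only. No library was a duplicate: chi-square per degree of freedom was 19.7 or more for pairs sharing a label.

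The genes, lists and tests were chosen with earlier results of these data known. By rule, the text names the 10 genes in full; each gene of the salvage, kynurenine, clearance, NADP and sirtuin lists; genes of the PARP, ectoenzyme, transport and SIRT1 regulator lists with adjusted p below 0.05 and an absolute log2 fold change above 1; and the 5 genes most correlated with Nampt. Other genes named from the lists and markers, the check genes and the ratios were chosen after their values were seen.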

Additional observations from a re-analysis of the deposited data

Results flagged for a closer look

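In 98 groups of 4 libraries (the 10 genes and the other NAD genes tested), Dixon's ratio picked out 8 in which a library lay apart from the other 3. Chance alone does so in about 1 of 20 groups. Replicate 4 of the libraries labelled Bmal1-/- was the one apart for 4 genes. Its Nnmt level was 327 CPM against 130.5 to 137 CPM, and its Parp12 level was 49.0 CPM against 27.9 to 30.8 CPM. The same library was low for Nmnat3, at 5.29 CPM against 7.12 to 7.43 CPM, and for Parp2, at 8.004 CPM against 8.99 to 9.04 CPM. It is also the library with 36959 CPM of acute-phase transcripts, whose part in these 4 values was not tested.

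Replicate 3 of the libraries labelled Bmal1-/- had 50.0 CPM of Sirt2 against 43.1 to 44.1 CPM. In Bmal1+/+ libraries, replicate 2 had 14.3 CPM of Sirt5 against 10.5 to 11.2 CPM and 1392 CPM of Slc25a47 against 989 to 1031 CPM. Replicate 3 of Bmal1+/+ had 21.0 CPM of Sirt7 against 24.0 to 24.1 CPM.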

How the results depend on the processing

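Nampt and Cd38 were called lower, and no other of the 10 genes was called, in each of 17 fits, with log2 fold changes of -2.48 to -2.37 and -1.03 to -0.84. The study's criterion counted 1 of the 10 genes lower, 4 of the other NAD genes lower and 1 higher, and 1250 and 776 of all genes. Signs turned for uncalled values near 0: Sirt3 was -0.0033 with DESeq2, -0.00014 with upper-quartile normalization and -0.012 with at least 10 counts in every library, and Acmsd was 0.021 with library size only, 0.0035 with limma-voom and 0.0017 with the replicate block. Leaving out a library in turn gave log2 fold changes of -0.0024 to 0.22 for Nmnat3, -0.15 to 0.034 for Naprt, -0.25 to 0.32 for Nnmt, -0.077 to 0.12 for Sirt3, -0.026 to 0.17 for Kmo, -0.022 to 0.16 for Haao, -0.13 to 0.10 for Acmsd, -0.15 to 0.21 for Nadk2, -0.12 to 0.0042 for Sirt2, -0.11 to 0.35 for Sirt6 and -0.17 to 0.015 for Parp6. Of the other NAD genes, Qprt, Parp8, Parp10 and Parp16 lost their call in 25 values in all, and 8 uncalled genes gained one in 17 values; the causes were not tested. Leaving out a library gave 7 to 10 of these genes lower and 5 to 9 higher, with 10 and 9 without replicate 4 of the libraries labelled Bmal1-/-.

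Shared replicate numbers did not pair the samples, since deviations of same-numbered libraries correlated at -0.06, 0.06, 0.04 and 0.04. The replicate block gave 2 of the 10 genes lower and 0 higher, 9 and 6 of the other NAD genes, and 2064 and 1809 of all genes, against 2322 and 2135 without it. Depth limits the genes below the filter, such as Nmnat2.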
